A study of Homo sapiens with 6 samples.

Results

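Ribosome footprints on 10 human genes, all known targets of the transcription factor ATF4, were examined in N6AMT1-depleted and control cells. The genes were chosen by name, as the rows of the deposited count table with these symbols, and are 10 of the 19330 genes listed there. ASNS, TRIB3, SESN2, CHAC1 and DDIT4 act inside the cell and are called effectors here. SLC7A11, SLC7A5, SLC3A2, SLC1A5 and SLC38A2 carry amino acids across the plasma membrane, or form part of such a carrier, and are called transporters.

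The cells were K562, an established line from a human chronic myelogenous leukemia. They were infected with the lentiviral vector pLentiCRISPRv2, which carries Cas9 and 1 guide RNA, selected with puromycin for 48 h from 48 h after infection, and analysed 10 days post infection. The sgN6AMT1 group (n = 3 libraries) received a guide against N6AMT1, which encodes a methyltransferase for the translation release factor eRF1. The sgCtrl group (n = 3 libraries) received a control guide against an olfactory receptor gene (labelled OR11A1 and OR2M49), and the labels do not assign these guides to single libraries. Both groups therefore shared infection, Cas9 and selection, and both were selected populations, for which no cloning step is described. The study's methods describe replicates as separate lentiviral infections of 1 cell line, so p-values measure the spread between infections of that line. Those methods also describe more than 1 guide against N6AMT1 without assigning them to libraries, so that spread may include guides. They spell the second control gene OR2M4.

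ATF4 is the main effector of the integrated stress response. When kinases phosphorylate the initiation factor eIF2, general initiation slows while translation of ATF4 mRNA, which is controlled by upstream open reading frames (ORFs), increases. ATF4 then binds composite C/EBP-ATF elements, usually together with a C/EBP partner, and switches on genes for amino acid synthesis, amino acid uptake and feedback. The response is triggered, among other things, by amino acid shortage, heme deficiency and mitochondrial stress.

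Ribosome profiling sequences the mRNA fragments that ribosomes protect from a nuclease, and the count of these fragments over a gene's coding sequence (CDS) is called occupancy here. Occupancy reflects mRNA abundance as well as translation, the study's RNA sequencing was not used here, and in bulk samples fewer cells making an mRNA and less mRNA per cell cannot be told apart. The libraries held between 1821356 and 2969736 footprints. N6AMT1 itself had 25, 24 and 34 footprints in sgCtrl and 10, 9 and 8 in sgN6AMT1 (log2 fold change -1.51, SE 0.31, edgeR adjusted p = 6.69e-05). All 12 erythroid markers examined were measured, with mean levels from 49.2 to 9885 CPM, that is, counts scaled to a common library size as edgeR does. Of these 12, 4 were higher and 4 lower in sgN6AMT1 by the test used below, against 12.9% and 13.9% of all genes tested. The part of these markers in the results was not tested. The lymphoid and fibroblast markers CD3E, MS4A1 and DCN summed to between 0 and 4 footprints per library. CD3D (59 to 109 footprints per library), COL1A2 (52 to 87) and COL1A1 (11 to 23), of the same lists, were measured, and none passed the test (edgeR adjusted p = 0.114, 0.177 and 0.594).

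All 10 genes passed the filter on low counts, and 6 of them changed in occupancy in N6AMT1-depleted cells. SLC3A2, SLC1A5, SESN2 and SLC7A5 rose, and ASNS and SLC38A2 fell, at edgeR adjusted p-values under 0.05. TRIB3, CHAC1, DDIT4 and SLC7A11 did not pass the test. The changes were moderate, from 1.44-fold higher for SLC3A2 to a log2 fold change of -0.30 for ASNS. Among all 9202 genes tested, 26.9% were called, 12.9% as higher and 13.9% as lower, so that 6 of 10, with 4 higher and 2 lower, is to be read against that share. The 10 genes were chosen with earlier results of these data known, so the comparison cannot show an excess of calls among them. Of genes with a mean of at least 50 counts, 1973 of 5874 were called. Of the 10 genes, 9 were among these and 6 were called. Without the second sgCtrl library 3 of the 10 genes passed (2 higher, 1 lower), against 1955 of all 9335 genes tested in that fit. DESeq2 also called 3, against 12.4% of the 10716 genes it tested. With total counts in place of the trimmed-mean (TMM) factors used to scale the libraries, the split over all genes moved from 1191 higher and 1282 lower to 1560 higher and 976 lower, and that of the 10 genes to 4 higher and 1 lower. The median log2 fold change was 0.12 over the 5 effectors, 0.24 over the 5 transporters and 0.01 over all genes tested.

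The groups did not overlap in CPM for 7 of the 10 genes, of which 5 were higher in sgN6AMT1 (SESN2, CHAC1, DDIT4, SLC3A2 and SLC1A5) and 2 lower (ASNS and SLC38A2). Over all genes tested the groups did not overlap for 37.5%, with 18.4% higher and 19.2% lower. TRIB3, SLC7A11 and SLC7A5 overlapped between the groups. The 10 genes together took 0.230% ± 0.0025 (SD, n = 3) of all footprints in sgCtrl and 0.263% ± 0.0019 (SD, n = 3) in sgN6AMT1. This pooled share is not a rise of each gene. SLC3A2 (411 to 591 CPM) and SLC1A5 (651 to 793 CPM) gained most, while ASNS and SLC38A2 fell. It also uses total counts without TMM factors, a scale on which the median log2 fold change over all genes was higher by 0.0546. The change of SLC3A2 was not extreme for these libraries, since 51.6% of the 1191 called increases were larger, and 67.9% of the 1282 called decreases were larger than that of ASNS.

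**Figure D1:**
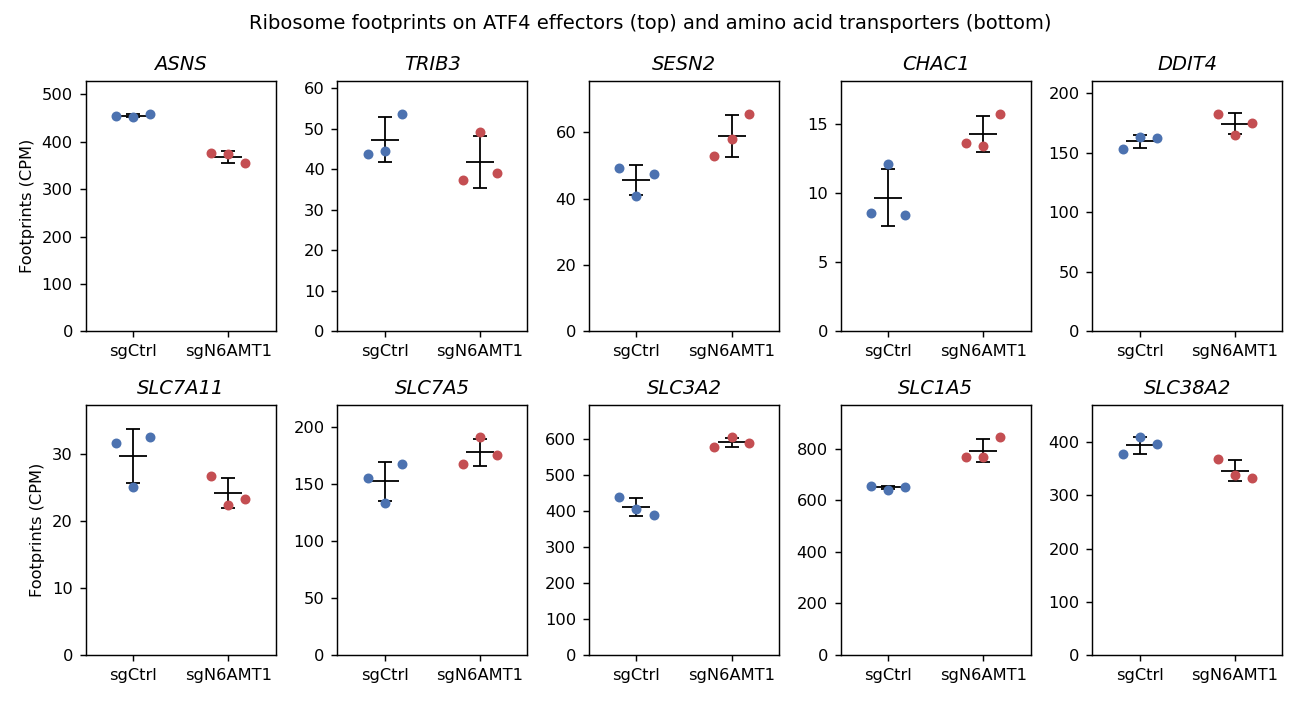
Occupancy in CPM (vertical axes from 0) of each of the 10 genes in the 3 sgCtrl and 3 sgN6AMT1 libraries, with 1 point per library, a line at the group mean and bars for the SD. The groups are apart for 7 genes, among them SLC3A2 (439.522 CPM in the highest sgCtrl library, 577.694 CPM in the lowest sgN6AMT1 library), and overlap for TRIB3, SLC7A11 and SLC7A5.

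The DNA element through which ATF4 acts was looked for in the promoters of these genes. The C/EBP-ATF response element was searched as TGATGNAA on both strands, in windows from 250 bases before to 50 bases after each transcription start of the RefSeq table for GRCh38.p14. Of the 10 genes, 9 were in that table, with 16 windows, and 4 windows of 4 genes held a match. Over all 35116 windows, 3.62% held one, and 4.46% of the 27305 genes had at least 1 such window. The windows that matched are shown because they place the element beside the genes described below, each as 30 bases of the coding strand with the match in capitals. Their positions, in the order shown, are chr7:97872458-97872487 (minus strand), chr15:40953251-40953280 (plus strand), chr11:62881719-62881748 (plus strand) and chr19:46784893-46784922 (minus strand).
ASNS: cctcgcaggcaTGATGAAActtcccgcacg
CHAC1: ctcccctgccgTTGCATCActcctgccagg
SLC3A2: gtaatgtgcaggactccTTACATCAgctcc
SLC1A5: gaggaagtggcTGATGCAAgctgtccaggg
ASNS and SLC1A5 carried the element in the direction searched, and CHAC1 and SLC3A2 carried its reverse complement. The centre of the match lay 205 bases before the start of the listed transcript for CHAC1, and before other RefSeq starts for ASNS (64 bases) and SLC1A5 (93 bases). Both of these matches fall within the span of the listed transcript, downstream of its start. In SLC3A2 it lay 41 bases after another start, also within that span. Of the 4 genes with a match, SLC3A2 and SLC1A5 rose, ASNS fell and CHAC1 did not pass the test, so both directions were present. A match is a description of the sequence and not evidence of binding.

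Among the effectors, ASNS had the most footprints and fell. ASNS is asparagine synthetase, which makes asparagine from aspartate and glutamine. Its listed transcript, ENST00000175506.8, lies at chr7:97852118-97872542 (GRCh38, minus strand) in 14 exons with a CDS of 1686 bases. ASNS occupancy was 454.089, 452.672 and 459.474 CPM in the sgCtrl libraries and 376.948, 373.706 and 354.487 CPM in the sgN6AMT1 libraries. The sgCtrl libraries lay within a few CPM of each other, and every sgN6AMT1 library lay well under all of them. The mean went from 455 ± 3.59 CPM (SD, n = 3) to 368 ± 12.1 CPM (SD, n = 3), which is a log2 fold change of -0.30 (SE 0.056, 95% interval -0.42 to -0.19) with edgeR adjusted p = 7.99e-06. ASNS kept this call under each of the 17 alternatives, between -0.32 and -0.25. RefSeq lists 5 pseudogenes of ASNS, none of which is in the count table, and GENCODE has a gene on the same strand that overlaps ASNS, so the assignment of footprints to ASNS is uncertain to that extent.

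SESN2, sestrin 2, binds leucine and restrains the growth kinase complex mTORC1 through GATOR2. Its transcript, ENST00000253063.3, lies at chr1:28259518-28282491 (plus strand) in 10 exons with a CDS of 1443 bases. SESN2 occupancy was 49.2, 40.7 and 47.3 CPM in sgCtrl and 53.0, 57.9 and 65.7 CPM in sgN6AMT1. All sgN6AMT1 libraries were above all sgCtrl libraries, the closest pair by a few CPM. SESN2 rose from 45.7 ± 4.49 to 58.9 ± 6.38 CPM (mean ± SD of 3 libraries each), with an edgeR log2 fold change of 0.37 (SE 0.12, 95% interval 0.13 to 0.61) and adjusted p = 0.0145. The call ended with DESeq2 (log2 fold change 0.36, adjusted p = 0.174), without the second sgCtrl library (0.27, edgeR adjusted p = 0.164) and without the third sgN6AMT1 library (0.29, edgeR adjusted p = 0.0913).

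CHAC1, a gamma-glutamylcyclotransferase that breaks down glutathione, had the fewest footprints. Its transcript, ENST00000617768.4, lies at chr15:40953471-40956512 (plus strand) in 3 exons with a CDS of 669 bases. The sgCtrl libraries held 17, 35 and 17 footprints and the sgN6AMT1 libraries 31, 31 and 29. As CPM, which account for the greater depth of the second sgCtrl library, these were 8.54, 12.1 and 8.38 against 13.6, 13.4 and 15.7. The groups did not overlap, with that sgCtrl library closest to sgN6AMT1. The log2 fold change of 0.51 (SE 0.24, 95% interval 0.03 to 0.98) was about as large as that of SLC3A2, but with edgeR adjusted p = 0.109 it did not pass the test. CHAC1 had the widest interval of the 10 genes.

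DDIT4 and TRIB3 did not pass the test either. DDIT4, also called REDD1, inhibits mTORC1 through the TSC complex, and its transcript, ENST00000307365.3, lies at chr10:72273924-72276036 (plus strand) in 3 exons with a CDS of 699 bases. DDIT4 occupancy was 153, 163 and 162 CPM in sgCtrl and 183, 165 and 175 CPM in sgN6AMT1, without overlap but with neighbouring values almost touching. Its log2 fold change was 0.12 (SE 0.074, 95% interval -0.02 to 0.27, edgeR adjusted p = 0.228). TRIB3 encodes a pseudokinase that binds ATF4 and dampens it, and its transcript, ENST00000422053.3, lies at chr20:381297-396748 (plus strand) in 5 exons with a CDS of 1158 bases. TRIB3 occupancy was 43.7, 44.5 and 53.7 CPM in sgCtrl and 37.3, 49.3 and 39.1 CPM in sgN6AMT1. The second sgN6AMT1 library lay above the lower sgCtrl libraries, and the log2 fold change was -0.16 (SE 0.13, 95% interval -0.42 to 0.09, edgeR adjusted p = 0.380). It was -0.30 without that library, -0.07 without the third sgCtrl library and -0.08 without the first sgN6AMT1 library.

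SLC3A2 showed the clearest change of the transporters. SLC3A2, known as 4F2hc or the CD98 heavy chain, is a single-pass glycoprotein that pairs with a light chain of the SLC7 family and brings it to the cell surface. Its listed transcript, ENST00000377891.6, lies at chr11:62856111-62888860 (plus strand) in 12 exons with a CDS of 1896 bases. SLC3A2 occupancy was 439.522, 404.75 and 388.482 CPM in sgCtrl and 577.694, 604.41 and 589.545 CPM in sgN6AMT1. The gap between the groups was larger than the whole range within either group. SLC3A2 rose from 411 ± 26.1 to 591 ± 13.4 CPM (mean ± SD of 3 libraries each), with an edgeR log2 fold change of 0.52 (SE 0.055, 95% interval 0.42 to 0.63) and adjusted p = 1.46e-13, and the call held in all 17 alternatives (0.46 to 0.58).

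SLC1A5, known as ASCT2, exchanges neutral amino acids including glutamine. Its transcript, ENST00000542575.6, lies at chr19:46774883-46788594 (minus strand) in 8 exons with a CDS of 1626 bases. SLC1A5 occupancy was 656.52, 642.29 and 653.222 CPM in sgCtrl and 767.483, 767.717 and 845.232 CPM in sgN6AMT1. The third sgN6AMT1 library was the highest, and the others were close to each other and above every sgCtrl library. SLC1A5 rose from 651 ± 7.45 to 793 ± 44.8 CPM (mean ± SD of 3 libraries each), with an edgeR log2 fold change of 0.28 (SE 0.051, 95% interval 0.18 to 0.39) and adjusted p = 3.64e-06. This call also held in all 17 alternatives (0.23 to 0.34).

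SLC38A2, known as SNAT2, takes up small neutral amino acids together with sodium, and unlike the other called transporters it fell. Its transcript, ENST00000256689.9, lies at chr12:46358188-46372773 (minus strand) in 16 exons with a CDS of 1521 bases. SLC38A2 occupancy was 377, 409 and 397 CPM in sgCtrl and 369, 337 and 333 CPM in sgN6AMT1. The first library of each group lay close together, while the others were well apart. SLC38A2 fell from 394 ± 16.0 to 346 ± 19.7 CPM (mean ± SD of 3 libraries each), with an edgeR log2 fold change of -0.19 (SE 0.058, 95% interval -0.30 to -0.07) and adjusted p = 0.00984. The call ended with DESeq2 (-0.20, adjusted p = 0.0502), with total counts (-0.13, edgeR adjusted p = 0.0793) and with libraries thinned to equal depth (-0.15, 0.0582). It also ended without the second sgCtrl library (-0.16, edgeR adjusted p = 0.0760) or the second sgN6AMT1 library (-0.17, edgeR adjusted p = 0.0826).

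The light chains SLC7A5 and SLC7A11 both pair with SLC3A2. SLC7A5, or LAT1, exchanges large neutral amino acids such as leucine for glutamine, and its transcript, ENST00000261622.4, lies at chr16:87830023-87869507 (minus strand) in 10 exons with a CDS of 1524 bases. SLC7A5 occupancy was 156, 133 and 168 CPM in sgCtrl and 167, 191 and 175 CPM in sgN6AMT1, so that the first sgN6AMT1 library lay just under the third sgCtrl library. SLC7A5 rose from 152 ± 17.4 to 178 ± 11.97 CPM (mean ± SD of 3 libraries each), with an edgeR log2 fold change of 0.24 (SE 0.078, 95% interval 0.08 to 0.39) and adjusted p = 0.0142. The call ended with DESeq2 (0.22, adjusted p = 0.174), without the second sgCtrl library (0.14, edgeR adjusted p = 0.284) and without the second sgN6AMT1 library (0.18, edgeR adjusted p = 0.171). RefSeq lists 2 pseudogenes of SLC7A5, which are not in the count table.

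SLC7A11, or xCT, imports cystine in exchange for glutamate and so feeds glutathione synthesis. Its transcript, ENST00000280612.9, lies at chr4:138164097-138242349 (minus strand) in 12 exons with a CDS of 1506 bases, and an antisense gene, SLC7A11-AS1, overlaps it. SLC7A11 occupancy was 31.6, 25.2 and 32.5 CPM in sgCtrl and 26.7, 22.5 and 23.3 CPM in sgN6AMT1. The second sgCtrl library fell inside the range of sgN6AMT1. The log2 fold change was -0.27 (SE 0.16, 95% interval -0.60 to 0.05, edgeR adjusted p = 0.216), so SLC7A11 did not pass the test.

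**Figure D2:**
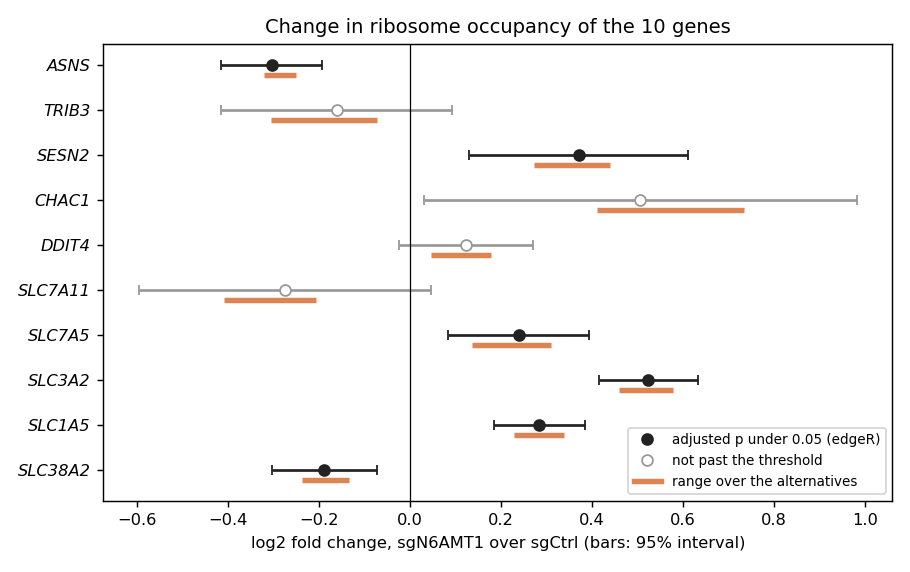
Log2 fold change of occupancy, sgN6AMT1 over sgCtrl (horizontal axis), for the 5 effectors and 5 transporters, with points at the edgeR estimate (filled where the adjusted p was under 0.05), black or grey bars for the 95% interval and orange bars for the range over the alternatives. The intervals of SLC3A2 (0.42 to 0.63) and SLC1A5 (0.18 to 0.39) lie above 0 and that of ASNS (-0.42 to -0.19) below it, while those of TRIB3, DDIT4 and SLC7A11 include 0.

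Ratios within a library need no scaling factor, and they set each light chain against its partner. Footprints on SLC7A5 per footprint on SLC3A2 were 0.354, 0.330 and 0.431 in sgCtrl and 0.290, 0.316 and 0.297 in sgN6AMT1. The mean ratio in sgN6AMT1 was 81.0% of that in sgCtrl, without overlap between the groups. Footprints on SLC7A11 per footprint on SLC3A2 were 0.0720, 0.0622 and 0.0838 in sgCtrl and 0.0463, 0.0372 and 0.0396 in sgN6AMT1. Here the mean in sgN6AMT1 was 56.5% of that in sgCtrl, again without overlap. Both 2-sided exact permutation tests gave p = 0.1, also after adjustment over the 2 ratios, which is the smallest p that 3 libraries against 3 allow, so the design could not pass a threshold of 0.05. Both ratios stayed lower in sgN6AMT1 whichever library was left out, with log2 changes from -0.38 to -0.18 for SLC7A5 and from -0.93 to -0.71 for SLC7A11. However, SLC3A2 itself rose 1.44-fold, so a gene without any change would also have a lower ratio to it. The lower ratios therefore do not show a fall of either light chain. In CPM, SLC7A5 rose and SLC7A11 did not pass the test.

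A further light chain of SLC3A2, SLC7A8 (LAT2), had a higher ratio to SLC3A2 in sgN6AMT1 and was chosen for this comparison after its values had been seen. SLC7A8 had 35, 48 and 34 footprints in sgCtrl and 160, 210 and 140 in sgN6AMT1. SLC7A8 rose from 16.96 ± 0.545 to 79.0 ± 10.6 CPM (mean ± SD of 3 libraries each), with an edgeR log2 fold change of 2.22 (SE 0.14) and adjusted p = 1.30e-25. This increase was larger than that of any of the 10 genes. Per footprint on SLC3A2, footprints on SLC7A8 went from a mean of 0.0413 in sgCtrl to 0.133 in sgN6AMT1. SLC7A6 (y+LAT2) rose by less, from 51.4 ± 4.43 to 63.2 ± 5.13 CPM (mean ± SD of 3 libraries each), at a log2 fold change of 0.31 and edgeR adjusted p = 0.0402. Its ratio to SLC3A2 went from a mean of 0.125 in sgCtrl to 0.107 in sgN6AMT1. The SLC7A6 call was lost in 10 of 17 alternatives, among them the fits without the second sgCtrl library (0.23, edgeR adjusted p = 0.248), the third sgCtrl library (0.32, 0.0584), the first sgN6AMT1 library (0.28, 0.101) and the third sgN6AMT1 library (0.26, 0.121). Of the 6 light chains of SLC3A2 considered, SLC7A7 had 5 footprints in 1 library and otherwise none, and SLC7A10 was at 0 in all libraries.

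Summed per kilobase of CDS, the light chains went from 163 ± 16.5 CPM per kb in sgCtrl to 223 ± 11.1 CPM per kb in sgN6AMT1 (SD, n = 3 each). Over SLC3A2 on the same scale the sum was 0.733, 0.677 and 0.858 in sgCtrl and 0.700, 0.738 and 0.712 in sgN6AMT1. The groups overlapped in this summed ratio, with means of 0.756 ± 0.0925 and 0.716 ± 0.0195 (SD, n = 3 each). In mean density, SLC7A5 was 1.17-fold, SLC7A6 1.23-fold and SLC7A8 4.65-fold of sgCtrl, and SLC7A11, which did not pass the test, 0.81-fold. The SLC7A8 density went from 10.5 ± 0.339 to 49.1 ± 6.60 CPM per kb (SD, n = 3 each), and the SLC7A5 density from 99.9 ± 11.4 to 117 ± 7.85 CPM per kb (SD, n = 3 each), so that SLC7A5 stayed the main light chain in footprints per length.

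**Figure D3:**
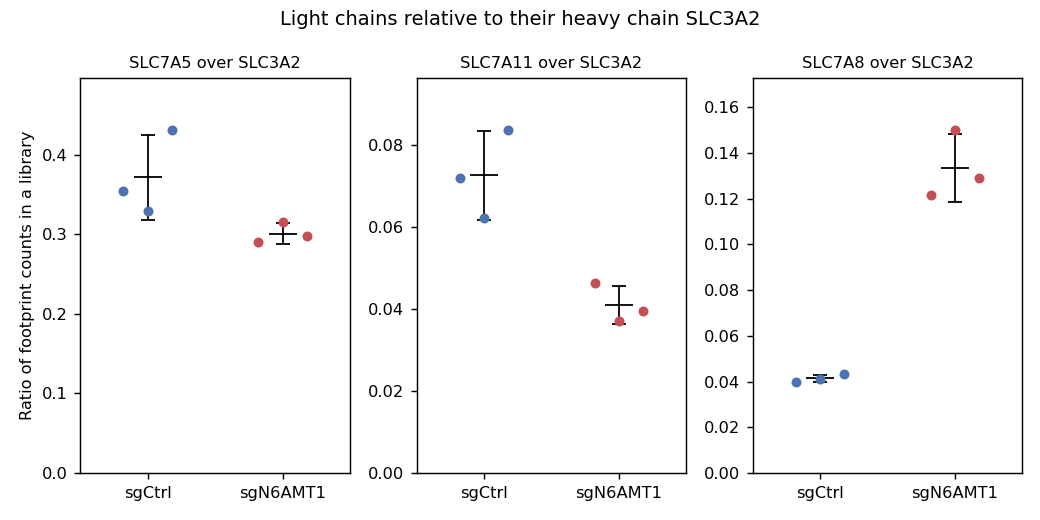
Footprints on a light chain divided by footprints on SLC3A2 in the same library (vertical axes from 0), with 1 point per library, a line at the group mean and bars for the SD. The ratio was lower in all sgN6AMT1 libraries for SLC7A5 (means 0.372 and 0.301) and SLC7A11 (0.0726 and 0.0410), and higher for SLC7A8 (0.0413 and 0.133). The divisor SLC3A2 itself rose 1.44-fold, which lowers the ratio of any gene without change.

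Levels of different genes were compared per kilobase of CDS. In sgCtrl the order of density was SLC1A5, ASNS, SLC38A2, DDIT4, SLC3A2, SLC7A5, TRIB3, SESN2, SLC7A11 and CHAC1. SLC1A5 stood at 400 ± 4.58 CPM per kb (SD, n = 3), at percentile 94.4 of the 8607 tested genes with an annotated CDS, and CHAC1 at 14.4 ± 3.11 CPM per kb (SD, n = 3), at percentile 36.5. ASNS and SLC38A2, DDIT4 and SLC3A2, and SLC7A11 and CHAC1 were neighbours in that order whose libraries overlapped. SLC3A2 moved from the fifth to the second place in sgN6AMT1, at 311 ± 7.06 CPM per kb (SD, n = 3) against 217 ± 13.8 in sgCtrl. ASNS moved from the second to the fifth place, at 218 ± 7.20 against 270 ± 2.13 CPM per kb (SD, n = 3 each). Among the low genes, SESN2 came ahead of TRIB3 and CHAC1 ahead of SLC7A11 in sgN6AMT1, and SESN2 and TRIB3 overlapped there, as did DDIT4 with SLC38A2 and SLC38A2 with ASNS.

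**Figure D4:**
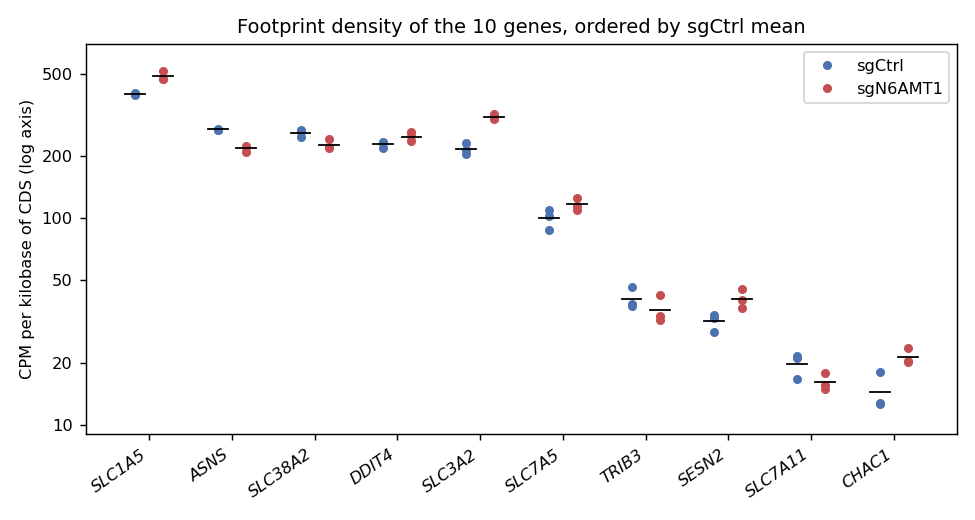
Footprint density in CPM per kilobase of CDS (log axis) of the 10 genes in the 6 libraries, ordered by the sgCtrl mean, with 1 point per library and a line at the group mean. Density runs from 14.4 CPM per kb for CHAC1 to 400 CPM per kb for SLC1A5 in sgCtrl, and SLC3A2 (217 to 311 CPM per kb) passes ASNS (270 to 218 CPM per kb) in sgN6AMT1.

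N6AMT1 methylates eRF1, the factor that reads all stop codons, so the end of each CDS is shown for the 6 genes that changed. Each sequence holds 6 bases either side of the stop codon, which is in capitals, in the transcript as annotated by GENCODE release 44.
SLC3A2: gcggccTGActtcag
SLC1A5: gtcatgTAAaccccg
SESN2: atgaccTGActcctg
SLC7A5: gagacaTAGccagga
ASNS: aaagctTAGgtggtc
SLC38A2: ggccatTAAttggca
These 6 genes held all 3 stop codons. TGA ended SLC3A2 and SESN2, which rose, TAA ended SLC1A5, which rose, and SLC38A2, which fell, and TAG ended SLC7A5, which rose, and ASNS, which fell. Of the other genes, CHAC1, DDIT4 and SLC7A11 end in TGA and TRIB3 in TAG. Over the listed transcripts with a complete CDS, TGA ended 49.3%, TAA 28.4% and TAG 22.3%. By stop codon, 510 of 4168 tested genes ending in TGA were called higher and 522 lower, against 333 and 413 of 2522 for TAA and 252 and 240 of 1797 for TAG.

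The leader of the mRNA was read in the same way, since upstream ORFs govern translation of several stress genes. The annotated leaders of ASNS, TRIB3, SESN2, SLC7A11, SLC3A2 and SLC38A2 each held at least 1 upstream ATG whose ORF closed within the leader, and those of CHAC1, DDIT4, SLC7A5 and SLC1A5 held no upstream ATG. Over all listed transcripts with an annotated leader, 36.9% held such an ORF. Of the 2770 tested genes with one, 367 were called higher and 299 lower, against 716 and 863 of the 5633 without one. Of the 6 genes with one, SLC3A2 and SESN2 rose, ASNS and SLC38A2 fell, and TRIB3 and SLC7A11 did not pass the test. The listed transcripts of ASNS, TRIB3 and SLC3A2 are not the MANE Select transcripts of their genes, so their leaders may differ from the main form in these cells. Footprints on the leaders themselves were not analysed here.

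ATF4 itself rose. ATF4 had 44, 85 and 51 footprints in sgCtrl and 89, 91 and 61 in sgN6AMT1, or 25.5 ± 3.62 and 37.1 ± 3.50 CPM (SD, n = 3 each). Its log2 fold change was 0.53 (SE 0.15) with edgeR adjusted p = 0.00414, and the call ended with DESeq2 (0.52, adjusted p = 0.0962). DDIT3, which encodes the ATF4 partner CHOP, held 5, 11 and 7 footprints in sgCtrl and 3, 2 and 2 in sgN6AMT1, too few to be tested. Side by side, ATF4 occupancy was higher while of its 10 targets here 4 rose, 2 fell and 4 did not pass the test. Of all genes tested, 12.9% were called higher and 13.9% lower. DESeq2, which did not call ATF4, called 3 of the 10 targets. A relation between ATF4 and these targets was not tested.

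The wider ATF4 program and integrated stress response, counted here with ATF4 and DDIT3, also went both ways. Of 34 such genes, 29 were tested, 7 rose, 7 fell and 15 did not pass (26.9% of all genes tested were called), with a median log2 fold change of -0.03 against 0.01 over all genes tested. With total counts the split became 9 higher and 5 lower. GDF15, a secreted stress cytokine, rose from 108 ± 5.56 to 162 ± 11.4 CPM (SD, n = 3 each; log2 fold change 0.59, edgeR adjusted p = 9.73e-09). KLHL24, an adaptor of a ubiquitin ligase, rose by 0.82 on the log2 scale (edgeR adjusted p = 0.00131), and ATF3, a stress transcription factor, by 1.08 (edgeR adjusted p = 0.00224, DESeq2 adjusted p = 0.0695). STC2, a secreted glycoprotein, rose by 0.58 (edgeR adjusted p = 0.00276), a call that ended with DESeq2 (adjusted p = 0.101) and without the second sgCtrl library (0.42, edgeR adjusted p = 0.0880).

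Those that fell included ATF5, a transcription factor whose mRNA is controlled by upstream ORFs as that of ATF4 is. ATF5 had 26, 36 and 18 footprints in sgCtrl and 7, 12 and 10 in sgN6AMT1 (log2 fold change -1.35, edgeR adjusted p = 0.000288), opposite to ATF4. ALDH18A1, the first enzyme of proline synthesis, fell by 0.47 on the log2 scale (edgeR adjusted p = 1.70e-05). PPP1R15A (GADD34), which directs a phosphatase to eIF2, was lower (-0.61, edgeR adjusted p = 0.0168), a call that ended with DESeq2 (adjusted p = 0.142) and without the first (-0.55, 0.0591) or the third (-0.50, 0.0951) sgCtrl library or the third sgN6AMT1 library (-0.51, 0.0782). PCK2, the mitochondrial phosphoenolpyruvate carboxykinase, was lower by the test (-0.36, edgeR adjusted p = 0.0182), but not without the second (-0.36, 0.0564) or the third (-0.33, 0.0569) sgCtrl library, without the first sgN6AMT1 library (-0.25, 0.164) or with DESeq2 (-0.37, adjusted p = 0.160). XPOT, which exports tRNA from the nucleus, was at -0.23 (edgeR adjusted p = 0.0240) and lost the call in 7 of 17 alternatives, among them without the second sgCtrl library (-0.19, 0.143) or the second (-0.24, 0.0681) or the third (-0.17, 0.137) sgN6AMT1 library.

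Of 32 other amino acid transporters, not all of them at the plasma membrane, 16 had enough footprints to be tested. Of these, 3 rose (SLC7A8 and SLC7A6, described above, and SLC1A4) and 1 fell (SLC38A5), against 26.9% called over all genes. The 16 tested genes had a median log2 fold change of 0.20. Without the second sgCtrl library 2 were called, against 1955 of all 9335 genes tested in that fit. SLC1A4 (ASCT1), a relative of SLC1A5, went from 51.8 ± 3.40 to 66.3 ± 1.05 CPM (mean ± SD of 3 libraries each), with an edgeR log2 fold change of 0.37 (edgeR adjusted p = 0.0106). The SLC1A4 call was lost in 4 of 17 alternatives, among them DESeq2 (adjusted p = 0.131) and the fit without the second sgCtrl library (0.30, edgeR adjusted p = 0.0960). SLC38A5 (SNAT5), a relative of SLC38A2, fell as SLC38A2 did, from 297 ± 23.3 to 244 ± 17.8 CPM (SD, n = 3 each; log2 fold change -0.29, edgeR adjusted p = 0.000300).

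Paralogues of the effectors were compared with the effectors themselves. TRIB2, a pseudokinase of the same family as TRIB3, rose from 27.4 ± 2.55 to 43.8 ± 3.51 CPM (SD, n = 3 each; log2 fold change 0.68, edgeR adjusted p = 6.02e-05), whereas TRIB3 did not pass the test; the difference between these genes was not tested. TRIB1 (0.21, edgeR adjusted p = 0.631), SESN1 (0.16, 0.738), CHAC2 (-0.16, 0.472) and ASNSD1 (-0.23, 0.423) did not pass either. The sign of TRIB1 turned without the second sgCtrl library (-0.08) or the second sgN6AMT1 library (-0.13), and that of SESN1 without the first sgCtrl library (-0.01). ASNSD1 was at -0.03 without the third sgCtrl library and at -0.13 without the second sgN6AMT1 library, and CHAC2 at -0.07 without the second sgCtrl library and -0.09 without the second sgN6AMT1 library. SESN3 had at most 11 footprints in a library and DDIT4L had none.

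**Figure D5:**
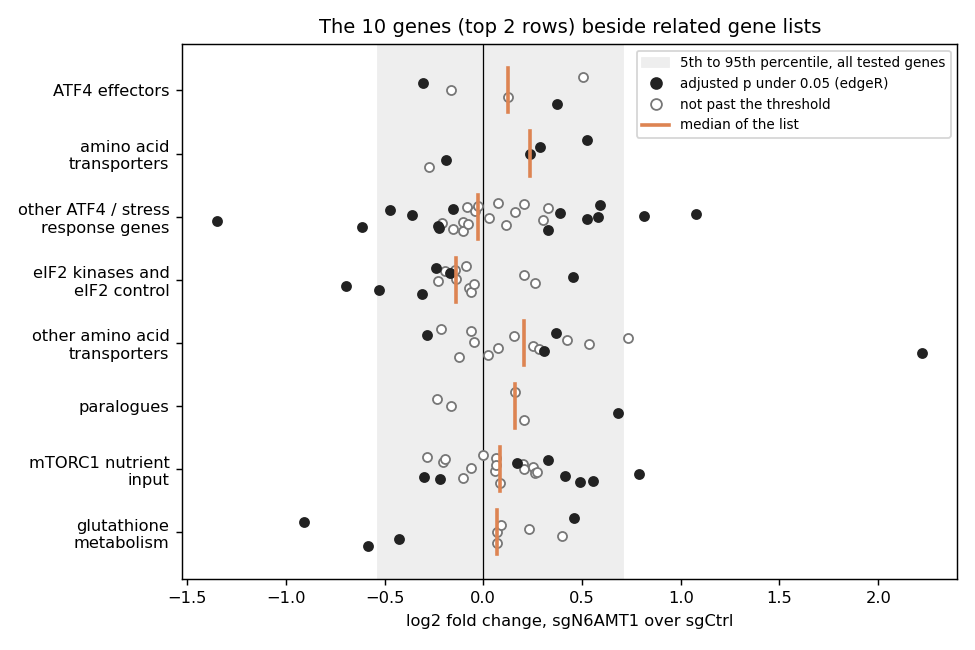
Log2 fold changes of occupancy, sgN6AMT1 over sgCtrl (horizontal axis), of the tested genes of each list (rows), with 1 point per gene, filled where the edgeR adjusted p was under 0.05, an orange line at the list's median and a grey band from the 5th to the 95th percentile of all genes tested (-0.53 to 0.71). Genes lie on both sides of 0 in every list shown, and the highest point is SLC7A8 at 2.22 among the other amino acid transporters.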

How the data were processed

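Ribosome footprints were measured in K562 cells, with 3 libraries of the sgCtrl and 3 of the sgN6AMT1 group, lysed with cycloheximide and digested with RNase I. The authors deposited 1 table of raw whole-number counts per transcript, neither normalized nor pooled. Per the study's methods, they trimmed reads with cutadapt, mapped them to GRCh38 with HISAT2, removed rRNA and tRNA reads, mapped the rest to canonical transcripts with bowtie2 and summed P-sites over each CDS with riboWaltz. Overlaps with an annotation were counted as well, and the sources used here do not say which kind was deposited. No molecular identifiers are described.

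Counts were fitted over the whole table with edgeR 4.0.16 in R 4.3.3. The filter filterByExpr (minimum 10 counts) left 9202 genes and removed 10128 with 0.465% of counts. TMM factors and a robust quasi-likelihood F test without covariates were used, 2-sided, with Benjamini-Hochberg adjustment over all genes tested and a threshold of 0.05. CPM use TMM-adjusted library sizes, and the SE derives from the F statistic. Transcripts were placed by identifier in GENCODE release 44 (17687, or 91.5%, matched). Alternatives were DESeq2 1.42.0, limma-voom (limma 3.58.1), other scaling factors, other filters, the replicate number as a block, thinning to 1821356 counts, removal of loess trends (span 0.5) on the length and the GC content of the CDS, and leaving out each library.

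The members, the lists, the tests and the naming rule were chosen with earlier results of these data known. The rule named the 10 genes, ATF4, DDIT3, N6AMT1, all 7 paralogues, and in each of the other lists up to 5 called genes with the largest change in each direction. On simulated data for this comparison, edgeR recovered 66.3% of 98 genes changed by 0.5 (log2) and 92.9% of 98 changed by 1, among 9159 genes, and 6.59% of its calls were false. The simulation changed far fewer genes than were called here and gave every gene the same variability between libraries. These shares need not hold for the calls on the real data. A marker and an overlapping gene are not reported here.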

Additional observations from a re-analysis of the deposited data

How the results depend on the processing

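No gene among the 10 changed direction in any alternative, and ASNS, SLC3A2 and SLC1A5 kept their calls in all 17. DESeq2 called 3 of the 10 (SLC3A2, SLC1A5 and ASNS), with SESN2 at 0.36, SLC7A5 at 0.22 and SLC38A2 at -0.20, and 1329 of 10716 genes overall (588 higher, 741 lower). It called 6 of the ATF4 and stress response genes, 3 of the eIF2 genes, 2 of the other transporters and 3 of the mTORC1 genes. SLC38A2 lost its call with total counts (-0.13) and with thinned libraries (-0.15), and thinning left 2 of the other transporters called, as did removal of CDS trends with the replicate block. Leaving out each library in turn gave 3 to 6 called genes of the 10, 1859 to 2322 of all genes, 10 to 14 of the ATF4 and stress response genes, 4 to 7 of the eIF2 genes, 2 to 4 of the other transporters and 2 to 7 of the mTORC1 genes. The ranges of log2 fold change were 0.27 to 0.44 for SESN2, 0.14 to 0.31 for SLC7A5, -0.24 to -0.16 for SLC38A2, -0.011 to 0.30 for SESN1 and -0.13 to 0.42 for TRIB1.

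No pairing of libraries by replicate number was seen. Same-numbered libraries of the 2 groups had correlations of -0.06, 0.02 and 0.02 between their deviations from the group means. Such values, from 3 libraries per group, do not show that pairing was absent. With the replicate block 6 of the 10 genes were called (4 higher, 2 lower) and 2390 of all genes, with log2 fold changes of 0.37 for SESN2, 0.24 for SLC7A5 and -0.19 for SLC38A2. The block ended the call of SLC7A6 (0.30, edgeR adjusted p = 0.0568) and of no other gene named here that was called.

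Depth limits the genes with few footprints: CHAC1 held 17 to 35 per library, and in the simulation a part of the changes of 0.5 (log2) was missed. A p that misses the threshold does not show that occupancy was equal.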

Other observations

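Upstream of ATF4 and the 10 genes, 16 of 17 genes for eIF2, its kinases, its exchange factor and their regulators (such as GCN1 and the OMA1 and DELE1 relay) were tested, and 1 rose and 5 fell, against 26.9% called over all genes, with a median log2 fold change of -0.14. With total counts 2 rose and 4 fell. EIF2AK1, the heme-regulated eIF2 kinase HRI, rose from 92.2 ± 14.1 to 128 ± 4.17 CPM (SD, n = 3 each; log2 fold change 0.45, edgeR adjusted p = 4.65e-05). EIF2B3, a subunit of the exchange factor eIF2B, fell from 193 ± 1.11 to 119 ± 2.96 CPM (SD, n = 3 each; log2 fold change -0.70, edgeR adjusted p = 1.43e-12). EIF2S3, the gamma subunit of eIF2, fell by 0.24 on the log2 scale (edgeR adjusted p = 0.000223). EIF2B1, another eIF2B subunit, was at -0.31 (edgeR adjusted p = 0.0109), a call that ended with DESeq2 (adjusted p = 0.0866) and without the first (-0.25, 0.0844) or the second (-0.30, 0.0509) sgN6AMT1 library. OMA1, the mitochondrial protease that relays stress to HRI, was at -0.53 (edgeR adjusted p = 0.00766), which ended with DESeq2 (adjusted p = 0.130) and without the second sgCtrl library (-0.37, 0.157). GCN1, which activates the eIF2 kinase GCN2, was at -0.17 (edgeR adjusted p = 0.0222), a call lost in 7 of 17 alternatives, among them without the first sgCtrl library (-0.15, 0.0749), the first sgN6AMT1 library (-0.13, 0.139) and the second sgN6AMT1 library (-0.16, 0.0955).

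SESN2 and DDIT4 both act on mTORC1, and 23 of 25 genes of its nutrient input and core were tested. Of these, 6 rose and 2 fell (26.9% of all genes were called), or 7 and 1 with total counts, with a median log2 fold change of 0.08. The number called was 4 without the second sgCtrl library (1955 of all 9335 genes in that fit) and 2 without the second sgN6AMT1 library. Over all genes, the fits that left out 1 library called from 1859 to 2322. LAMTOR2 and LAMTOR5, subunits of the Ragulator complex that holds mTORC1 at the lysosome, rose by 0.79 and 0.41 on the log2 scale (edgeR adjusted p = 1.75e-07 and 4.38e-06). MTOR, the kinase itself, fell from 137 ± 4.33 to 112 ± 6.01 CPM (SD, n = 3 each; log2 fold change -0.30, edgeR adjusted p = 0.00425), a call that ended without the second sgN6AMT1 library (-0.25, 0.0557). NPRL2, a GATOR1 subunit, was at 0.56 (edgeR adjusted p = 0.0226), a call lost in 5 of 16 alternatives. Among them were DESeq2 (adjusted p = 0.207) and the edgeR fits without the third sgCtrl library (0.46, 0.0955) or the second sgN6AMT1 library (0.40, 0.228). RRAGC, a Rag GTPase, was at 0.49 (edgeR adjusted p = 0.0282), and its call was lost in 5 of 17 alternatives. Among them were DESeq2 (adjusted p = 0.279) and the edgeR fits without the second sgCtrl library (0.45, 0.111) and without the first (0.39, 0.152) or the second (0.37, 0.223) sgN6AMT1 library. LAMTOR3 was at 0.33 (edgeR adjusted p = 0.0289), a call that ended with DESeq2 (adjusted p = 0.234) and without the first (0.30, 0.0852) or the second (0.29, 0.127) sgCtrl library or the second sgN6AMT1 library (0.29, 0.126). SEH1L, a GATOR2 subunit and nucleoporin, was at -0.22 (edgeR adjusted p = 0.0248), and lost the call in 7 of 17 alternatives, among them the 5 fits without each single sgCtrl library or the first or second sgN6AMT1 library (adjusted p from 0.0513 to 0.0635).

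CHAC1 and SLC7A11 stand at the exit and the entry of glutathione metabolism, and all 9 other genes listed here for it were tested. Of these 9, 1 rose and 3 fell, against 26.9% called over all genes, with a median log2 fold change of 0.07. GPX4, the lipid peroxidase that uses glutathione, rose by 0.46 on the log2 scale (edgeR adjusted p = 0.00106). OPLAH, which opens the 5-oxoproline ring that CHAC1 releases, fell from 37.1 ± 1.19 to 19.8 ± 1.18 CPM (SD, n = 3 each; log2 fold change -0.91, edgeR adjusted p = 2.30e-06). CBS and CTH, the enzymes that turn homocysteine into cysteine, fell by 0.59 and 0.43 on the log2 scale (edgeR adjusted p = 6.99e-07 and 0.00748). The CTH call ended with DESeq2 (adjusted p = 0.104) and with thinned libraries (-0.35, 0.0557), and footprints on CBS may be shared with its near-identical copy. The other 5 genes did not pass the test.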
